A study of Mus musculus with 6 samples.

Results

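The genes described here are 38 members of the endoplasmic reticulum (ER) stress response and the integrated stress response, among 18303 gene lines of an RNA-seq expression table. They were taken by name, and all 38 had a line. Of these, 19 belong to the folding branch in the ER (13 chaperones and foldases, 3 genes of ER-associated degradation, and 3 sensors or factors of the unfolded protein response). The other 19 belong to the integrated stress response (5 transcription factors, 6 feedback and effector genes, 5 enzymes of amino acid and one-carbon synthesis, and 3 amino acid transporter genes).

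When unfolded protein builds up in the ER, the sensors Ire1 (encoded by Ern1), Atf6 and Perk start the unfolded protein response. Ire1 splices the Xbp1 message, and spliced Xbp1 and cleaved Atf6 raise transcription of chaperones such as Hspa5 (BiP) and of degradation genes. Perk and the related kinases that sense amino acid shortage, heme shortage and double-stranded RNA phosphorylate eIF2alpha, which lowers general translation but favours translation of Atf4, and Atf4 then raises genes for amino acid supply and feedback. Phosphatidylethanolamine, which the CDP-ethanolamine pathway makes from ethanolamine through the ethanolamine kinases (Etnk1 and Etnk2) and the enzyme Pcyt2, is a main lipid of ER membranes, and altered membrane lipids are known to engage the unfolded protein response.

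The cells were mouse embryonic fibroblasts, strain label CBA/CaJ X C57BL/6J, at day 2 of reprogramming towards pluripotency in iCD1 medium, and each of 6 libraries came from bulk RNA. The shLuc group (an shRNA against luciferase, which is no mouse gene) had 2 libraries. The shEtnk1/2 group (shRNAs against the ethanolamine kinases), the shPcyt2 group, the Etn-deprived group (shLuc cells in iCD1 without ethanolamine, Etn) and the shPebp1 group (an shRNA against Pebp1, a phosphatidylethanolamine-binding protein) had 1 library each. The series text also speaks of shPebp1 cells with and without ethanolamine, and that contrast was not analysed here. The labels do not say whether the shLuc libraries came from separate cultures, so p-values measure only the spread between these samples. Each treated library had no replicate of its own and was assumed to vary as the shLuc pair did.

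The 6 libraries held between 18467583 and 20020465 reads in genes. Etnk1 stood at 59.1% of the shLuc mean in the shEtnk1/2 library and Pcyt2 at 72.9% in the shPcyt2 library. Pcyt2 was also below the shLuc mean where it was not targeted, at 81.5% in Etn-deprived, 86.6% in shEtnk1/2 and 93.3% in shPebp1. Etnk2 was low throughout, at 0.457 and 1.00 RPKM (reads scaled to transcript length and library size) in the shLuc libraries and 0.333 RPKM in the shEtnk1/2 library. Pebp1 went against one label, since it stood at 250.4 RPKM in shLuc replicate 1, 100.7 RPKM in the library labelled shLuc replicate 2 and 99.6 RPKM in the shPebp1 library, while the other libraries held 210.5 to 263.4 RPKM. All 10 fibroblast genes checked were present, with a summed level of 9777 to 13442 RPKM, highest in the shEtnk1/2 library, where 6 of them rose, led by Postn by 0.90, Col1a1 by 0.57, Dcn by 0.55 and Pdgfra by 0.42 on the log2(RPKM + 1) scale (limma, Benjamini-Hochberg adjusted p between 0.00291 and 0.0249 for these 4). Under quantile normalization Col1a1 differed by 0.17 (adjusted p = 0.274) and Col1a2, another of the 6, by -0.09 instead of 0.32. Col1a1 differed by 0.51 without shLuc replicate 1 and by 0.63 without the library labelled shLuc replicate 2. In those fits the spread came from the shPcyt2 and Etn-deprived libraries pooled, so they cannot tell whether the 6 calls depend on 1 control library. Of 26 listed markers of macrophages, endothelium, keratinocytes, skeletal muscle, neural and glial cells and adipocytes, 23 were in the table and 9 reached the level needed for testing. Summed macrophage markers ranged from 45.1 to 60.6 RPKM, most of it Lyz2, and the neural marker Stmn2 from 33.5 to 53.8 RPKM. In the shEtnk1/2 library Lyz2 rose by 0.34 while Stmn2 fell by 0.45 (limma, adjusted p = 0.0478 and 0.0191). Myog was at 0 in 4 of the 6 libraries, Adipoq in 5, Ckm in 3 and Krt5 in 1, and Pecam1 and Cdh5 were at 0 in shLuc replicate 1 and in the shEtnk1/2 library. Other markers of the same lists were present in every library. The endothelial marker Tek stood at 20.7 to 24.6 RPKM, the neural Tubb3 at 6.35 to 9.20 RPKM and the keratinocyte Krt14 at 0.712 to 2.01 RPKM. The muscle marker Acta1 (0.758 to 3.45 RPKM) and the adipocyte marker Fabp4 (0.309 to 4.43 RPKM) differed within the shLuc pair. In that pair Acta1 stood at 0.758 and 2.81 RPKM and Fabp4 at 0.309 and 2.93 RPKM. The part of these markers in the results on the stress genes was not tested. In bulk RNA, fewer cells of a type and less RNA per cell cannot be told apart.

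Promoter windows of the members hold elements of both branches. The ER stress response element (ERSE), the letters CCAAT and CCACG with 9 bases between them, is the site at which Atf6 acts together with the factor NF-Y, and the shorter ERSE-II, the letters ATTGG and CCACG with 1 base between them, serves Atf6 and Xbp1 in Herpud1. The C/EBP-ATF composite element, TGATGNAAN, is the site through which Atf4 acts on amino acid response genes. Both strands were searched in windows from 250 bases before to 50 after each RefSeq start site (build GRCm38.p6, 32851 windows). A window was found for 33 of the 38 members, with 34 windows in all, and none for Eif4ebp1, Hyou1, Atf6, Slc7a5 or Manf.

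ERSE letters stood in windows of 7 members, all chaperones or foldases, against 0.119% of all windows. ERSE-II letters stood in the Herpud1 window alone among the members, against 0.0365% of all windows, and no window held both elements. The stretches below, 5′ to 3′ on the gene's strand, show the element in capitals in the members whose values are set against each other later. Where the capitals begin with CGTGG, the element lies on the opposite strand. Hsp90b1 carries ERSE letters in both directions.
Hspa5, chr2:34771840-34772089, plus strand: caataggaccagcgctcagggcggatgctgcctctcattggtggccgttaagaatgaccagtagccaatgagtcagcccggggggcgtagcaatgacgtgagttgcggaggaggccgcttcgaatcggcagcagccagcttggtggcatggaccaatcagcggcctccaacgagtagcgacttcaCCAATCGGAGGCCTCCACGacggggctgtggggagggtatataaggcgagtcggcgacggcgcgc
Hsp90b1, chr10:86705518-86705671, minus strand: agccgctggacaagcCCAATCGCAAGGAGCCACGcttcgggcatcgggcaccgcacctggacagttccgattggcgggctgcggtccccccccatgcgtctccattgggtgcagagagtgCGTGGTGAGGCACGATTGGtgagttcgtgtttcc
Calr, chr8:84847060-84847108, minus strand: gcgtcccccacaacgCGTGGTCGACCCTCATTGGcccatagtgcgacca
Canx, chr11:50325785-50325833, minus strand: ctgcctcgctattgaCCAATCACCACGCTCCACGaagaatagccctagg
Pdia6, chr12:17266476-17266524, plus strand: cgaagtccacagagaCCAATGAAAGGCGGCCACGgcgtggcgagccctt
Dnajc3, chr14:118937812-118937860, plus strand: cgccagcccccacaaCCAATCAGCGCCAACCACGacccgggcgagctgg
Creld2, chr15:88819505-88819553, plus strand: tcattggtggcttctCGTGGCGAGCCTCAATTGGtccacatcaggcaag
Herpud1, chr8:94386362-94386402, plus strand: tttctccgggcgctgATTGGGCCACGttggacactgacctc

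Composite element letters stood in windows of 6 members, namely Herpud1, Atf3, Trib3, Chac1, Asns and Slc7a11, against 3.95% of all windows. The stretches below show 4 of them, again with the element in capitals, and capitals that end in GCATCA are the element read on the opposite strand. Slc7a11 holds one in each direction.
Atf3, chr1:191183421-191183459, minus strand: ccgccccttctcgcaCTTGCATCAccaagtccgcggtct
Chac1, chr2:119351033-119351071, plus strand: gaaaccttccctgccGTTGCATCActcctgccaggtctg
Asns, chr6:7693210-7693247, minus strand: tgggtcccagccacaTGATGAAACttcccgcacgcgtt
Slc7a11, chr3:50443638-50443694, minus strand: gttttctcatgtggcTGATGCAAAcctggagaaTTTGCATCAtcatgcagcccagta

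The members spanned a wide range of levels in the shLuc libraries. On the RPKM scale, which is per transcript length and so allows levels of different genes to be compared, the folding machinery was the most abundant. Calr, the calcium-binding lectin chaperone calreticulin, stood at 567.0 RPKM in shLuc replicate 1 and 565.0 RPKM in the library labelled shLuc replicate 2. It was followed by the disulfide isomerase Pdia3 at 422.2 and 434.8 RPKM, the ER Hsp90 paralog Hsp90b1 (GRP94) at 364.7 and 352.6 RPKM, and Hspa5 at 285.5 and 282.8 RPKM. These 4 genes did not overlap one another in the shLuc pair, so their order held within it.

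Pdia6, Canx, Psat1, Atf4 and Pdia4 lay next, between 97.6 and 145.7 RPKM. Psat1, a serine synthesis enzyme, and Atf4 were the most abundant members of the integrated stress response branch, at 130.0 and 125.8 RPKM and at 111.7 and 105.4 RPKM. Among the 9 members from Ddit4 to Sesn2 in the order of shLuc means, levels ran from 34.4 to 55.0 RPKM. Neighbours in that order overlapped in the shLuc pair, as Phgdh (49.2 and 49.4 RPKM) and Manf (49.3 and 48.8 RPKM) did, except Manf with Hyou1 and Shmt2 with Sel1l.

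The lowest members were stress-inducible genes. Slc7a11, the light chain of the cystine-glutamate exchanger, stood at 1.55 and 1.79 RPKM, and Chac1, a glutathione-degrading enzyme, at 1.52 and 1.46 RPKM. Atf3 stood at 1.13 and 0.900 RPKM, Cebpb at 0.915 and 0.737 RPKM, and the pseudokinase Trib3 at 0.290 and 0.694 RPKM, which rest on 45 and 35, 28 and 22, and 12 and 28 reads. These 3 genes averaged under 1 RPKM over the 6 libraries and were left out of the tests, so 35 of the 38 members were tested among 11939 genes.

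**Figure D1:**
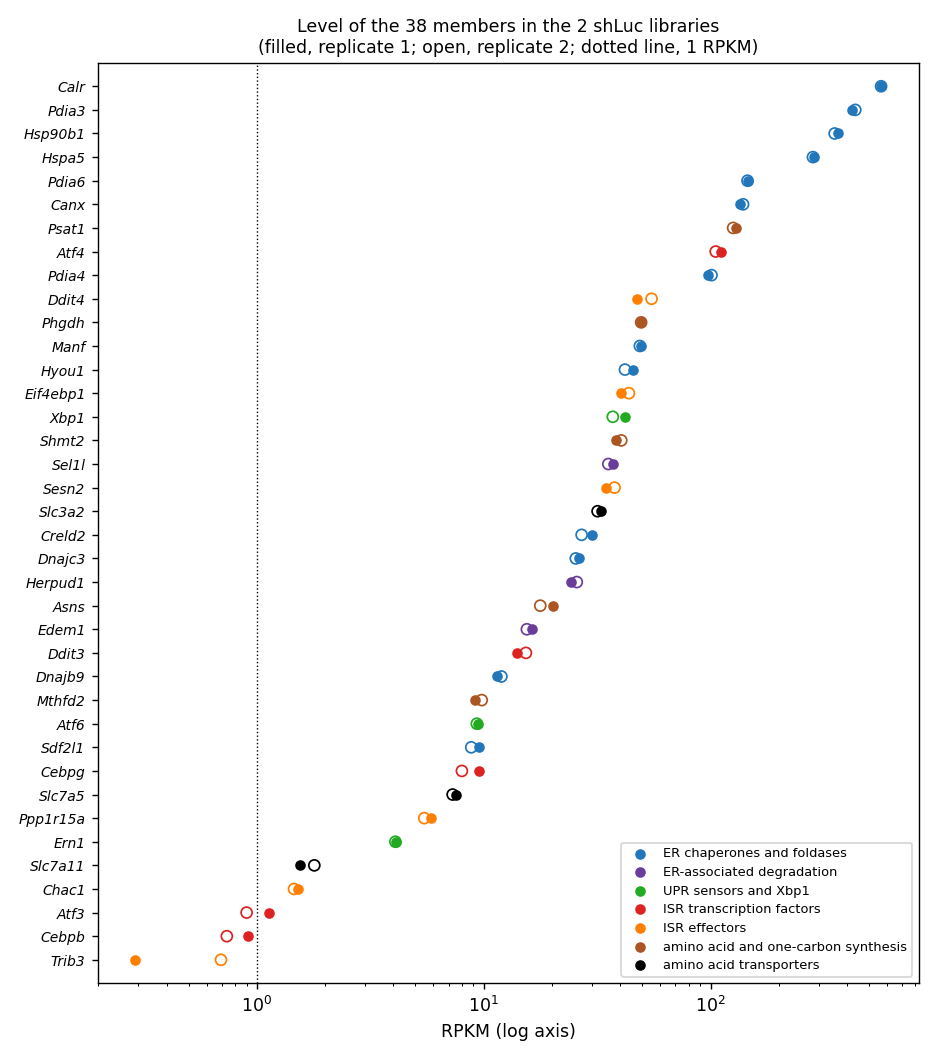
RPKM (log axis) of the 38 members in the 2 shLuc libraries, ordered by their mean; filled points are shLuc replicate 1, open points the library labelled shLuc replicate 2, colours give the role, and the dotted line marks 1 RPKM. Chaperones fill the top of the range, led by Calr at 567.0 and 565.0 RPKM, and Trib3 lies lowest at 0.290 and 0.694 RPKM.

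Between the shLuc libraries the tested members differed by a median of 0.07 in absolute value on the log2(RPKM + 1) scale, and all genes tested by 0.09. Cebpg differed by -0.22 and Ddit4 by 0.21 (the library labelled shLuc replicate 2 minus replicate 1), and the other tested members lay between. Differences between groups below are on this same scale and, against shLuc, are averaged over the shLuc pair. They were tested with limma in a model of 5 group means with 1 residual and 9.24 prior degrees of freedom. The comparison that pools 3 treated libraries instead used a model of that pool and the shLuc pair, with 3 residual and 6.37 prior degrees of freedom. Adjustment was Benjamini-Hochberg over all 11939 genes. All comparisons with shLuc share the same pair of control libraries.

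The question for the folding branch was whether blocking the CDP-ethanolamine pathway moved ER chaperones. Against shLuc, 11 of 13 chaperones and foldases lay higher in the shEtnk1/2 library (median difference 0.12) and 9 of 13 in the Etn-deprived library (median 0.11), while medians were 0.03 in the shPcyt2 library and -0.01 in the shPebp1 library. The medians over all genes tested were -0.06, -0.01, -0.02 and 0.01 in the same order. None of these differences passed the limma test at an adjusted p of 0.05 in any of the 4 comparisons.

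Hsp90b1, chr10:86690841-86705444, stood at 364.7 RPKM in shLuc replicate 1, 352.6 RPKM in the library labelled shLuc replicate 2, 406.8 RPKM in shEtnk1/2, 355.2 RPKM in shPcyt2, 425.7 RPKM in Etn-deprived and 345.3 RPKM in shPebp1. The Etn-deprived and shEtnk1/2 libraries were the highest, above both shLuc libraries, and the shPcyt2 library lay inside the shLuc range. Relative to the pooled shLuc reads its level was 1.19 times in the Etn-deprived library (exact 95% interval 1.17 to 1.21, covering counting error only) and 1.13 times in the shEtnk1/2 library (1.12 to 1.15). The differences were 0.25 (SE 0.06, adjusted p = 0.0546) and 0.18 (SE 0.06, adjusted p = 0.141) by limma. With limma-voom on the whole reads recovered from the table, the differences were 0.26 and 0.25. Both passed by limma-voom, at adjusted p = 0.0133 and 0.0122. By limma with median ratio scaling neither passed (adjusted p = 0.0681 and 0.0883). With trends in GC content and length removed, the differences were 0.15 and 0.20 (limma adjusted p = 0.355 and 0.156). In the mm10 annotation, 15.7% of the exon bases of Hsp90b1 are shared with other genes, partly on the opposite strand, and whether the counting used strand is not given in the sources used here.

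Canx, the membrane-bound lectin chaperone calnexin, chr11:50293957-50325673, stood at 134.8 and 139.2 RPKM in the shLuc libraries, 149.0 RPKM in shEtnk1/2, 136.8 RPKM in shPcyt2, 161.2 RPKM in Etn-deprived and 139.6 RPKM in shPebp1. The Etn-deprived library was the highest, with a difference of 0.23 (SE 0.07, limma adjusted p = 0.0847). By limma-voom the difference was 0.25 and passed at adjusted p = 0.0221. With trends in GC content and length removed it was 0.10 (limma adjusted p = 0.564).

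Pdia3 stood at 422.2 and 434.8 RPKM in the shLuc libraries, 482.7 RPKM in shEtnk1/2, 446.7 RPKM in shPcyt2, 487.1 RPKM in Etn-deprived and 448.2 RPKM in shPebp1. All 4 treated libraries lay above the shLuc pair, and the shEtnk1/2 and Etn-deprived libraries stood apart from the rest. The differences were 0.17 in shEtnk1/2 and 0.18 in Etn-deprived (limma adjusted p = 0.153 and 0.125). By limma-voom they were 0.24 and 0.20, and both passed (adjusted p = 0.0143 and 0.0481). By limma with median ratio scaling neither passed (adjusted p = 0.0912 and 0.124). With trends in GC content and length removed, the differences were 0.21 and 0.14 (limma adjusted p = 0.122 and 0.357).

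Dnajb9 (ERdj4), a cochaperone of BiP, stood at 11.5 and 12.0 RPKM in the shLuc libraries, 13.7 RPKM in shEtnk1/2, 11.4 RPKM in shPcyt2, 15.1 RPKM in Etn-deprived and 12.0 RPKM in shPebp1. Against shLuc, its difference of 0.34 in Etn-deprived cells (SE 0.10, limma adjusted p = 0.0978) was the largest positive one of the tested members in that comparison. Manf, a secreted ER-stress-induced factor, stood at 49.3 and 48.8 RPKM in shLuc and 56.2 RPKM in shEtnk1/2. The difference was 0.19 and did not pass by limma (adjusted p = 0.192). By limma-voom Manf did not pass either (adjusted p = 0.0547). An earlier limma-voom run with other library sizes had called it, and the sizes used here were chosen after seeing the data. Overlapping genes, partly antisense, share 9.25% of the exon bases of Manf.

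Sdf2l1, a component of the ER chaperone complex, chr16:17130138-17132383, went the other way. It stood at 9.53 and 8.81 RPKM in the shLuc libraries, 7.40 RPKM in shEtnk1/2, 10.2 RPKM in shPcyt2, 6.99 RPKM in Etn-deprived and 8.14 RPKM in shPebp1, on 144 to 218 reads per library. The Etn-deprived and shEtnk1/2 libraries were the lowest, with differences of -0.35 (SE 0.11, limma adjusted p = 0.127) and -0.27 (SE 0.11, adjusted p = 0.219). Hyou1, the large ER Hsp70 relative, was lowest in the same 2 treated libraries, at 39.7 and 39.3 RPKM against 45.6 and 41.9 RPKM.

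No difference of the remaining chaperones passed by limma. Hspa5, the main ER Hsp70 and a standard readout of the unfolded protein response, stood at 285.5 and 282.8 RPKM in shLuc, 300.7 RPKM in shEtnk1/2, 286.8 RPKM in shPcyt2, 308.1 RPKM in Etn-deprived and 281.9 RPKM in shPebp1. Its differences ranged from -0.01 to 0.12 over the 4 comparisons. Pdia6 was highest in the shPcyt2 library, at 164.4 RPKM against 145.7 and 145.6 RPKM, a difference of 0.17 (unadjusted p = 0.0214, limma adjusted p = 0.821) and the one member with an unadjusted p under 0.05 in that comparison. Calr, Pdia4, Dnajc3 and Creld2 had differences between -0.13 and 0.19 over the 4 comparisons. Dnajc3 differed by 0.17 in shEtnk1/2 and 0.19 in Etn-deprived cells, and neither difference passed (limma adjusted p = 0.298 and 0.253).

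Members with ERSE letters differed in size and direction. Of the 7 members with the element shown above, all lay higher than the shLuc mean in the shEtnk1/2 library (0.04 to 0.18, median 0.12). In the Etn-deprived library 5 lay higher and 2 lower, from -0.11 for Creld2 to 0.25 for Hsp90b1. Without the library labelled shLuc replicate 2, 6 of 7 lay higher in the shEtnk1/2 library. Herpud1, with ERSE-II, had differences of -0.09 and 0.09 in these 2 libraries. The 13 chaperones and foldases together, with the element, without it or with no window, had a median of 0.12 in the shEtnk1/2 library, and 11 of them lay higher. The 13 hold the 7, so these medians do not compare members with and without the element.

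No difference of the degradation genes passed. Herpud1, a stress-induced ER membrane protein of the degradation machinery, stood at 24.2 and 25.7 RPKM in shLuc, 23.3 RPKM in shEtnk1/2, 25.9 RPKM in shPcyt2, 26.6 RPKM in Etn-deprived and 25.8 RPKM in shPebp1. Edem1, which directs misfolded glycoproteins to degradation, and Sel1l, the adaptor of the ubiquitin ligase Hrd1, had differences between -0.05 and 0.11 over the 4 comparisons with shLuc.

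Among sensors and factors, total Xbp1 (the gene-level table does not separate the spliced form) stood at 42.1 and 37.1 RPKM in shLuc, 47.3 RPKM in shEtnk1/2, 40.7 RPKM in shPcyt2, 46.1 RPKM in Etn-deprived and 41.6 RPKM in shPebp1. The shEtnk1/2 and Etn-deprived libraries lay above both shLuc libraries, which themselves differed by -0.18 (the library labelled replicate 2 minus replicate 1). The differences were 0.25 (SE 0.09, limma adjusted p = 0.170) and 0.22 (SE 0.09, adjusted p = 0.224). By limma-voom the first was 0.32 and passed (adjusted p = 0.0295). By limma with median ratio scaling it was also 0.32 and did not pass (adjusted p = 0.133). Without the library labelled shLuc replicate 2, which was the lowest in Xbp1, the difference in shEtnk1/2 was 0.16 and in Etn-deprived 0.13. Atf6 had differences between -0.08 and 0.04 over the 4 comparisons.

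Ern1, chr11:106397620-106487796, stood at 4.10 and 4.08 RPKM in shLuc, 4.15 RPKM in shEtnk1/2, 3.53 RPKM in shPcyt2, 4.10 RPKM in Etn-deprived and 2.84 RPKM in shPebp1. The shPebp1 library was the lowest, with 210 reads against 329 and 319 in the shLuc libraries. Its level was 0.693 times the pooled shLuc level (exact 95% interval 0.591 to 0.811), a difference of -0.41 (SE 0.15) that did not pass limma (unadjusted p = 0.0186, adjusted p = 0.711).

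The integrated stress response branch was read to ask whether Atf4 and its targets moved with the pathway. Of its 16 tested members, 13 lay lower than the shLuc mean in the Etn-deprived library (median -0.19) and 12 lay lower in the shEtnk1/2 library (median -0.04). Of all 11939 genes tested, 6339 lay lower in the Etn-deprived library (median -0.01) and 7681 in the shEtnk1/2 library (median -0.06). The members' median in shEtnk1/2 was thus not below that of all genes. Medians were -0.01 in the shPcyt2 library and -0.02 in the shPebp1 library. In Etn-deprived cells 1 member of the 38 passed limma, Eif4ebp1, which fell. Over all genes tested, 3.8% passed in that comparison and 3.22% passed in the lower direction, so a single call among 35 tested members is near the background share.

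Eif4ebp1 encodes the translation repressor 4E-BP1, a target of mTORC1 whose gene is induced by Atf4. At chr8:27260327-27275656 it stood at 40.3 RPKM in shLuc replicate 1, 43.7 RPKM in the library labelled shLuc replicate 2, 41.5 RPKM in shEtnk1/2, 47.1 RPKM in shPcyt2, 31.5 RPKM in Etn-deprived and 40.4 RPKM in shPebp1. The Etn-deprived library was the lowest and the shPcyt2 library the highest. On 574 reads against 1641 in the shLuc pair, its level in Etn-deprived cells was 0.749 times that of shLuc (exact 95% interval 0.680 to 0.824). It fell by 0.40 (SE 0.08, limma adjusted p = 0.0268).

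This call was not kept under most other settings. By limma-voom the difference was -0.40 with an adjusted p of 0.0638. With the trend of differences in transcript length removed it was -0.27 (adjusted p = 0.162), and with trends in GC content and length removed -0.21 (adjusted p = 0.358). Without the library labelled shLuc replicate 2 it was -0.35 and without shLuc replicate 1 -0.46. In those 2 fits the spread came from the shEtnk1/2 and shPcyt2 libraries pooled. They cannot tell whether the call depends on 1 control library.

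Setting the Etn-deprived library against the shPcyt2 library directly, with 1 library on each side, Eif4ebp1 was lower by a difference of -0.57 (SE 0.10, limma adjusted p = 0.00994). Over all genes tested, 3.22% passed in that contrast and 2.73% passed in the lower direction, and no other member did (11 members and 2322 of all genes had an unadjusted p under 0.05), while limma-voom called Eif4ebp1 and Hsp90b1, with 5.27% of all genes called. Against shEtnk1/2 the Etn-deprived level was not separated, since shEtnk1/2 minus Etn-deprived was 0.39 (adjusted p = 0.108), nor was it against shPebp1 (-0.35, adjusted p = 0.117). In these 2 contrasts, and in shEtnk1/2 against shPcyt2, 0 members passed limma, with 2, 9 and 3 members and 1722, 1832 and 1538 of all genes under 0.05 before adjustment, and limma-voom called 0, 1 (Hsp90b1, in Etn-deprived against shPebp1) and 0. The shares of all genes called by limma were 0.854%, 1.22% and 0.921%, and by limma-voom 1.99%, 1.12% and 1.34%.

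Atf4, the central factor, chr15:80255184-80257545, stood at 111.7 and 105.4 RPKM in shLuc, 103.3 RPKM in shEtnk1/2, 108.6 RPKM in shPcyt2, 91.4 RPKM in Etn-deprived and 106.4 RPKM in shPebp1. The Etn-deprived library was the lowest of the 6, with a difference of -0.25 (SE 0.07, limma adjusted p = 0.0874). Atf4 is regulated mostly in translation, which RNA levels do not show. Ddit3 (CHOP), the stress-induced factor linked to cell death, stood at 14.0 and 15.3 RPKM in shLuc, 14.4 RPKM in shEtnk1/2, 15.4 RPKM in shPcyt2, 12.7 RPKM in Etn-deprived and 15.4 RPKM in shPebp1, again lowest in Etn-deprived cells, with a difference of -0.19. Genes on the opposite strand share 4.73% of its exon bases.

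The untested factors were sparse. Atf3 had 45 and 35 reads in shLuc, 34 in shEtnk1/2, 25 in shPcyt2, 21 in Etn-deprived and 38 in shPebp1, and its Etn-deprived level was 0.562 times that of shLuc (exact 95% interval 0.330 to 0.918). Cebpb had 22 to 28 reads in every library, 20.7% of its exon bases are shared with a gene on the opposite strand, and each interval of its ratio to shLuc spanned 1. Trib3 had 11 to 28 reads, its 2 shLuc libraries lay at 12 and 28 reads, and each interval of its ratio also spanned 1. Cebpg, a partner of Atf4, had differences between -0.05 and 0.03.

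All 5 tested feedback and effector genes lay below the shLuc mean in Etn-deprived cells, with a median difference of -0.28. Within the shLuc pair these 5 differed by a median of 0.11 (the library labelled shLuc replicate 2 minus replicate 1). Their transcripts had 54.6 to 58.7% GC. In Etn-deprived cells the medians of all genes at 50 to 55% and 55 to 60% GC were -0.06 and -0.13. The part of base composition in the effector median was not tested. Ddit4 (REDD1), an inhibitor of mTORC1, stood at 47.5 and 55.0 RPKM in shLuc, 44.0 RPKM in shEtnk1/2, 50.2 RPKM in shPcyt2, 42.0 RPKM in Etn-deprived and 52.9 RPKM in shPebp1. The difference in Etn-deprived cells was -0.28 (SE 0.10, limma adjusted p = 0.150), set against a difference of 0.21 inside the shLuc pair. Sesn2, a leucine-binding regulator of mTORC1, and Ppp1r15a (GADD34), the phosphatase subunit that reverses eIF2alpha phosphorylation, had differences of -0.20 and -0.18 there, and neither passed.

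Chac1, chr2:119351242-119354327, stood at 1.52 and 1.46 RPKM in shLuc, 1.42 RPKM in shEtnk1/2, 1.45 RPKM in shPcyt2, 0.959 RPKM in Etn-deprived and 0.582 RPKM in shPebp1. The 2 lowest libraries held 28 and 17 reads, and the other 4 held 44 to 48. In shPebp1 its level was 0.391 times that of shLuc (exact 95% interval 0.219 to 0.660), with a difference of -0.65 (SE 0.20, unadjusted p = 0.00898, limma adjusted p = 0.609). This was the largest difference of any tested member in any comparison, and log2(RPKM + 1) understates it because the level is low.

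**Figure D2:**
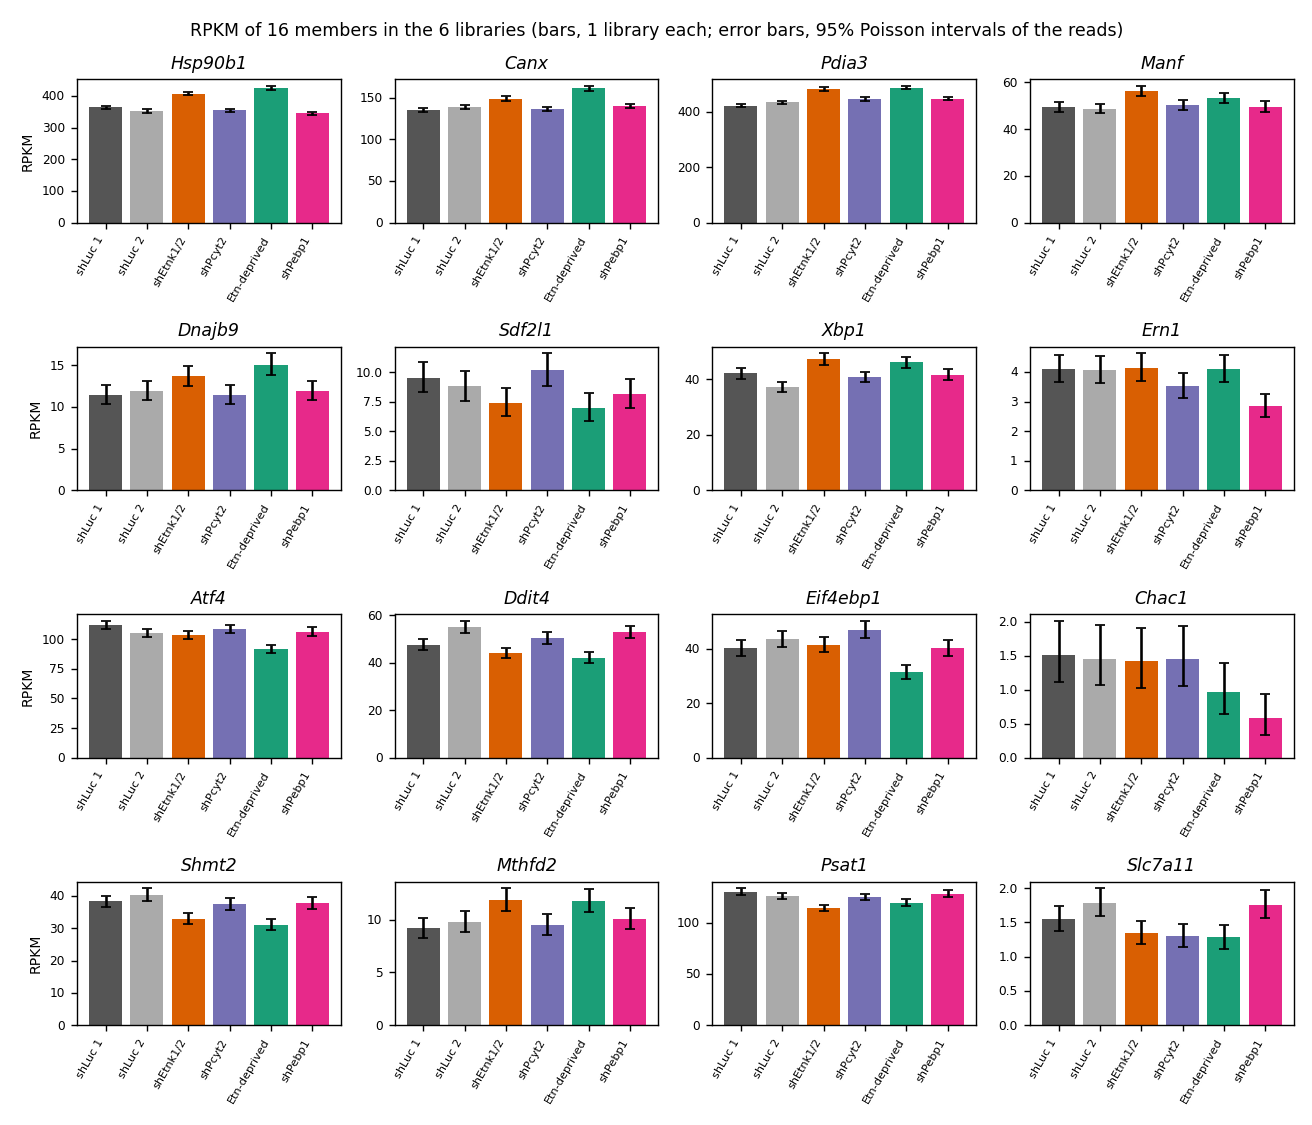
RPKM of 16 members in the 6 libraries (1 bar per library, axes from 0; error bars are exact 95% Poisson intervals of the reads and cover counting error only). Eif4ebp1 is lowest in the Etn-deprived library at 31.5 RPKM, Hsp90b1 is highest there at 425.7 RPKM, and Chac1 and Ern1 are lowest in the shPebp1 library.

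The synthesis enzymes split. Shmt2, the mitochondrial serine hydroxymethyltransferase, chr10:127517123-127522444, stood at 38.3 and 40.4 RPKM in shLuc, 33.0 RPKM in shEtnk1/2, 37.4 RPKM in shPcyt2, 31.0 RPKM in Etn-deprived and 37.9 RPKM in shPebp1. The 4 treated libraries all lay below the shLuc pair, the Etn-deprived and shEtnk1/2 libraries farthest. The differences were -0.33 (SE 0.08, limma adjusted p = 0.0518) and -0.25 (SE 0.08, adjusted p = 0.134), and the first passed by limma-voom (adjusted p = 0.0434). With the length trend removed the first was -0.30 (limma adjusted p = 0.118). With trends in GC content and length removed it was -0.19 (limma adjusted p = 0.380).

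Mthfd2, the next mitochondrial enzyme of the one-carbon pathway, went the other way in the same libraries. It stood at 9.18 and 9.80 RPKM in shLuc, 11.9 RPKM in shEtnk1/2, 9.53 RPKM in shPcyt2, 11.8 RPKM in Etn-deprived and 10.1 RPKM in shPebp1. The shEtnk1/2 and Etn-deprived libraries were the highest, at 1.25 times (exact 95% interval 1.11 to 1.40) and 1.24 times (1.10 to 1.39) the pooled shLuc level. Their differences were 0.29 and 0.28 (SE 0.11 for both, limma adjusted p = 0.169 and 0.175).

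Psat1 stood at 130.0 and 125.8 RPKM in shLuc and lowest in shEtnk1/2 at 113.8 RPKM, a difference of -0.17 (limma adjusted p = 0.203). Phgdh, the first enzyme of serine synthesis, and Asns, the asparagine synthetase and a standard Atf4 target, had differences between -0.13 and 0.13 in the 4 comparisons, and the shLuc libraries themselves differed by -0.18 in Asns.

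No difference of the transporter genes passed. Slc7a5, the light chain of the leucine transporter LAT1, stood at 7.55 and 7.29 RPKM in shLuc, 7.16 RPKM in shEtnk1/2, 6.75 RPKM in shPcyt2, 8.60 RPKM in Etn-deprived and 7.23 RPKM in shPebp1. It was highest in Etn-deprived cells (0.19) and lowest in shPcyt2 cells (-0.12), and neither difference passed. Slc7a11 lay below both shLuc libraries in the shEtnk1/2, shPcyt2 and Etn-deprived libraries, at 1.34, 1.30 and 1.28 RPKM, with 220 to 245 reads each against 289 and 325, and in the shPebp1 library it stood at 1.76 RPKM, between them. Its level in the first 3 was 0.805, 0.780 and 0.768 times that of shLuc (exact 95% intervals 0.691 to 0.935, 0.668 to 0.909 and 0.655 to 0.897). Slc3a2, the shared heavy chain of both transporters, had differences between -0.11 and 0.04.

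Calls over the members are given here beside those over all genes. In shEtnk1/2 against shLuc, limma called 0 of 35 tested members (8, and 2284 of all 11939 genes, had an unadjusted p under 0.05) where 3.46% of all genes were called, and limma-voom called 3, Hsp90b1, Pdia3 and Xbp1, where it called 5.37% of all genes. In Etn-deprived against shLuc, 12 members and 2375 of all genes had a p under 0.05 before adjustment, and limma-voom called 4, Hsp90b1, Canx, Pdia3 and Shmt2, where it called 4.69% of all genes. In shPcyt2 and shPebp1 against shLuc, limma and limma-voom called 0 members, with 1 and 2 at an unadjusted p under 0.05, beside 713 and 698 of all genes. Limma called 0.109% and 0.101% of all genes in those comparisons, and limma-voom 0.00838% and 0.0168%.

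With shEtnk1/2, shPcyt2 and Etn-deprived taken as 1 group of 3 libraries against the shLuc pair, limma and limma-voom called 0 members, and 0% of all genes. The spread in this model also holds the differences among the 3 treatments. By limma, 1 member (Shmt2, -0.22, adjusted p = 0.812) and 724 genes in all had an unadjusted p under 0.05. In that comparison 14 of 19 folding members lay higher (median 0.09) and 12 of 16 tested members of the integrated stress response lay lower (median -0.07), beside a median of -0.03 over all genes.

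**Figure D3:**
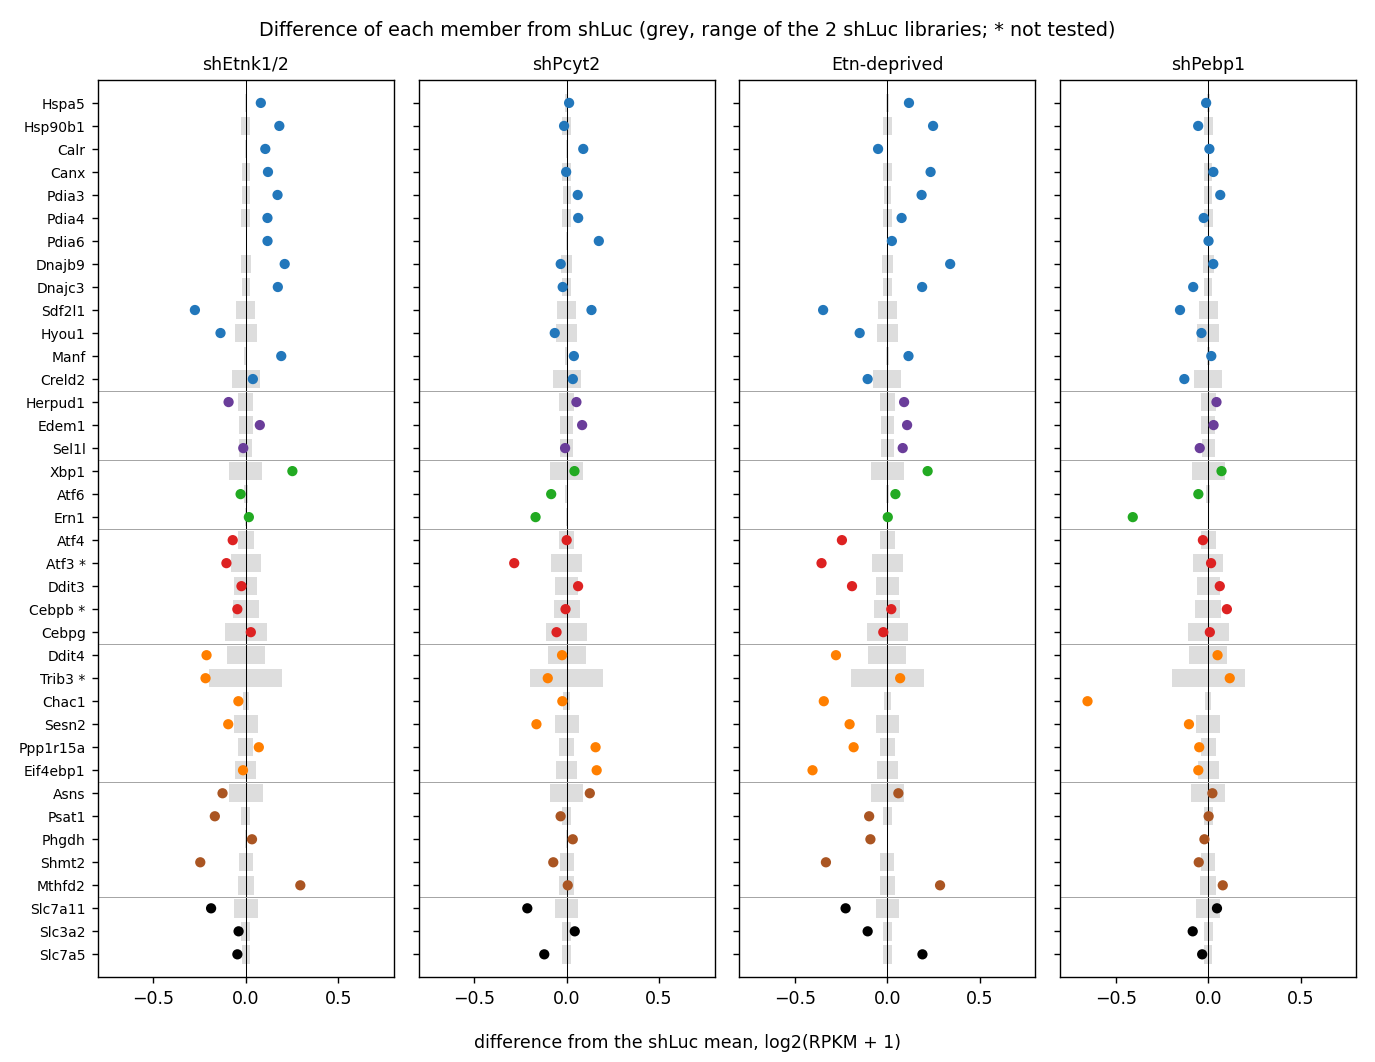
Difference of each member from the shLuc mean in each treated library on the log2(RPKM + 1) scale; each point is 1 library, colours and horizontal lines separate the 7 roles in the order of the text, grey bars span the 2 shLuc libraries, and an asterisk marks the 3 members not tested. Most chaperones lie right of 0 in the shEtnk1/2 and Etn-deprived panels (medians 0.12 and 0.11), all 5 tested effector genes lie left of 0 in the Etn-deprived panel, and most points of the shPcyt2 and shPebp1 panels lie near 0.

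The side of the shLuc pair was also read without a test. A gene was counted when it lay at least 0.25 above or below both shLuc libraries. In shEtnk1/2 this held for Mthfd2 on the higher side (3.87% of all genes) and for 0 members on the lower side (8.91%). In Etn-deprived it held for Dnajb9 on the higher side (4.19%) and for Sdf2l1, Chac1, Eif4ebp1 and Shmt2 on the lower side (8.23%). In shPcyt2 it held for 0 members on either side (1.73% and 2.29%), and in shPebp1 for 0 on the higher side (1.56%) and for Ern1 and Chac1 on the lower side (2.58%).

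Base composition moved with the difference in Etn-deprived cells. Over the 35 tested members the difference and the GC content of the transcript had a Spearman correlation of -0.64, and over 11861 genes with a GC value it was -0.50. These points share libraries and are not independent, so no p is given. Folding members had a median GC content of 47.7% and tested members of the integrated stress response 55.0%, against 50.2% for all genes tested. The median difference of all genes in Etn-deprived cells was 0.11 at 40 to 45% GC, 0.03 at 45 to 50%, -0.06 at 50 to 55% and -0.13 at 55 to 60%, and the members' medians in these bands were 0.21, 0.08, -0.08 and -0.20.

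With trends in GC content and length removed, the median of the folding members in Etn-deprived cells was 0.07 and that of the integrated stress response members -0.09, and the correlation with GC over members was -0.32. Hsp90b1 then differed by 0.15, Canx by 0.10 and Dnajb9 by 0.22, while Mthfd2 (0.30), Xbp1 (0.29) and Slc7a5 (0.30) exceeded their values as deposited. Slc7a11, whose transcript has the second lowest GC content among the tested members, then had the lowest difference of them, -0.38. In the shEtnk1/2 library the correlation with GC was -0.48 over the members and -0.18 over all genes. There the folding members' median was 0.14 with both trends removed, and that of the integrated stress response members turned from -0.04 to 0.04. It was also slightly above 0 under median ratio scaling and by limma-voom, both of which bring the median of all genes from -0.06 to 0, so no direction is given for that branch in shEtnk1/2 cells.

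**Figure D4:**
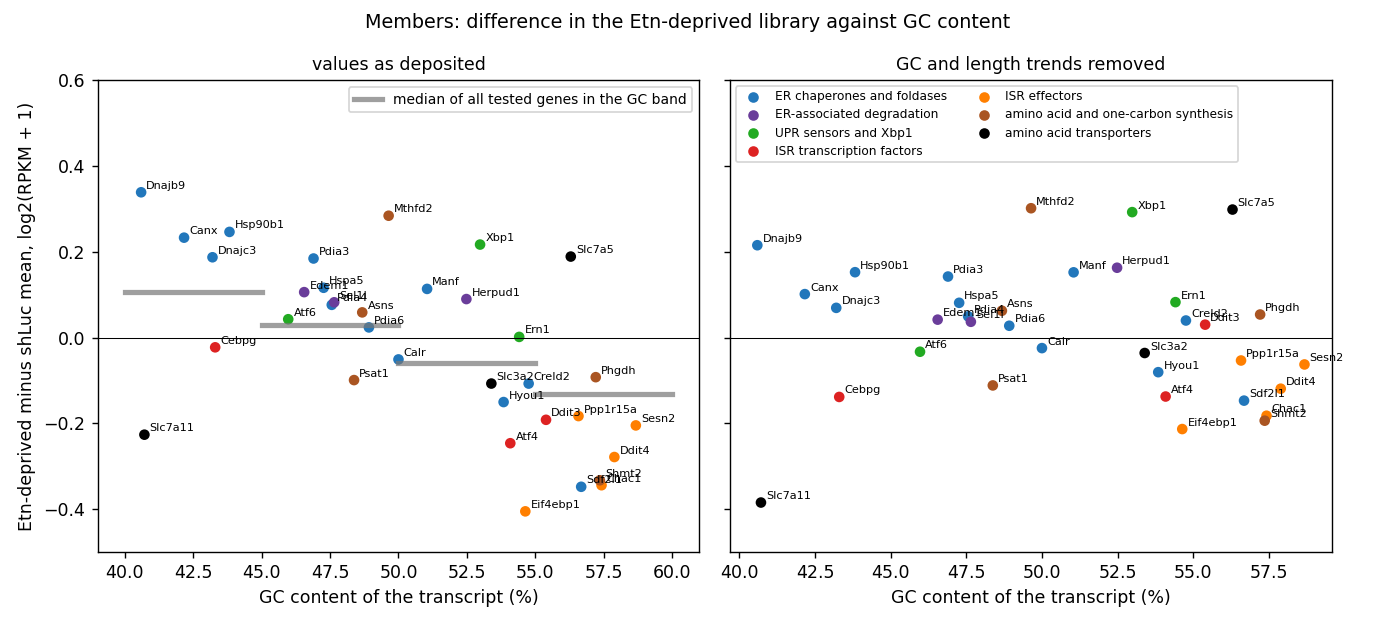
Difference of the 35 tested members in the Etn-deprived library (vertical axis, log2(RPKM + 1)) against the GC content of the transcript (horizontal axis, percent), with values as deposited (left) and with GC and length trends removed (right); colours give the role and grey lines the median of all tested genes in each GC band. The members fall from left to right in the left panel (Spearman correlation -0.64) and less so in the right panel (-0.32).

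The branch medians kept their signs without the library labelled shLuc replicate 2, whose Pebp1 level matched the shPebp1 library. The folding members' median was then 0.10 in both the shEtnk1/2 and the Etn-deprived library, against 0.11 and 0.09 with both shLuc libraries. That of the integrated stress response members was -0.07 and -0.14, against -0.04 and -0.19. In shPebp1 cells, Chac1 differed by -0.67 and Ern1 by -0.41 without that library.

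Other genes of the same pathways were read from longer lists. Over all genes tested, limma called 3.46% in shEtnk1/2 cells and 3.8% in Etn-deprived cells. A call on 1 or 2 genes of such a list is near that share. Of 48 other ER folding and degradation genes, 46 were tested. In shEtnk1/2 cells 1 of them rose and none fell, namely Creb3l1 (OASIS), an ER-anchored transcription factor known in bone for collagen genes, which stood at 52.5 RPKM in both shLuc libraries and 70.9 RPKM in shEtnk1/2. Creb3l1 rose by 0.43 (SE 0.07, limma adjusted p = 0.0149), and by 0.53 with GC and length trends removed (adjusted p = 0.0140). Leaving out either shLuc library gave a difference of 0.43 each time, with the spread then taken from the shPcyt2 and Etn-deprived libraries pooled.

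In Etn-deprived cells 5 of the 46 tested genes of that list fell and none rose, where 3.22% of all genes tested fell. They were Fkbp2 (a peptidyl-prolyl isomerase) by 0.46, Sec61g by 0.42 and Sec61b by 0.32 (subunits of the translocation channel), and Ssr2 (a subunit of the translocon-associated complex) by 0.32, with limma adjusted p between 0.0118 and 0.0292. The fifth, Os9 (a lectin of ER-associated degradation, named after its values were seen), fell by 0.32 (adjusted p = 0.0444). None of the 5 passed with the length trend or with GC and length trends removed.

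Of 44 other genes of the integrated stress response, 42 were tested. Limma called 2 of them in shEtnk1/2 cells, where it called 3.46% of all genes. In shEtnk1/2 cells Gdf15, a stress-induced secreted factor, fell from 8.83 and 8.02 RPKM to 4.90 RPKM, by 0.67 (SE 0.12, limma adjusted p = 0.0197). Cth, the cystathionine lyase of cysteine synthesis, fell from 8.32 and 9.34 RPKM to 5.70 RPKM, by 0.55 (SE 0.12, adjusted p = 0.0377). Neither passed by limma-voom (adjusted p = 0.128 and 0.101) or with the length trend removed, and no member of this list passed in Etn-deprived cells. Of 19 cytosolic heat shock genes, all tested, Hspb8 fell by 0.44 in shEtnk1/2 cells (limma adjusted p = 0.0114) and Cryab fell by 0.38 in Etn-deprived cells (adjusted p = 0.0144), both small heat shock proteins. Each was the 1 call of that list in its comparison, beside 3.46% and 3.8% of all genes called. Cryab differed by -0.23 with GC and length trends removed (adjusted p = 0.232) and did not pass with the length trend removed (0.101) or under quantile normalization (0.0532). No call on a gene of these 3 lists held with no filter on low values, where the prior degrees of freedom were 0.614 instead of 9.24. Without either shLuc library the spread came from other treated libraries pooled. Neither setting can tell whether these calls depend on the filter or on 1 control library. In the shPcyt2, shPebp1 and pooled comparisons limma called no gene of these 3 lists.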

How the data were processed

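The authors deposited one table of RPKM values per gene for the 6 libraries. Per the submitters' processing notes, reads were handled with Bowtie 0.12.2 on build mm10, and the sources used here name no counting tool, gene models or strand setting. Every RPKM value of the 18303 genes was a whole number of reads within a tolerance of 1e-05 reads plus 5e-09 of the value, so reads per gene, transcript lengths and depths were recovered from the deposited values. Tests used limma 3.58.1 (trended, robust, two-sided) on log2(RPKM + 1) for the 11939 genes that averaged 1 RPKM or more, called at an adjusted p under 0.05, with R 4.3.3. Limma-voom was run on the recovered reads with library sizes from median ratios. Other settings were no filter, a mean of at least 5 RPKM, a pseudocount of 0.1, median ratio scaling, quantile normalization, length and GC trends removed (lowess, span 0.3), and each shLuc library left out. The library sizes for limma-voom, removal of the GC trend, and limma-voom and the length trend for contrasts between treated libraries, were chosen after seeing the data. Scripts were tested on simulated data.

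Members and lists were chosen with earlier results of these data known. Values in every library are given for members called in any comparison, for the member of each role with the largest difference, and for further members near them; of other lists, up to 4 called genes per comparison are named. Exon overlaps and GC content came from GENCODE M21, with a GC value for 11861 tested genes, and promoter windows from RefSeq on GRCm38.p6. Exact intervals (95%) cover counting error only. Members came from 7 roles, 11 of them share some exon bases with another annotated gene, and gene symbols are as in the table. One result on a marker gene is not reported here.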

Additional observations from a re-analysis of the deposited data

Results flagged for a closer look

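Eif4ebp1 differed between 2 treatments meant to act on the same pathway: the Etn-deprived library minus the shPcyt2 library was -0.57 on the log2(RPKM + 1) scale (limma, adjusted p = 0.00994, 1 library on each side). Against the shLuc pair the same gene fell by 0.40 in the Etn-deprived library and differed by 0.16 in the shPcyt2 library. The contrast did not pass with the length trend removed (-0.40, adjusted p = 0.114) or with GC and length trends removed (-0.34, adjusted p = 0.235).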

How the results depend on the processing

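No paired analysis was possible because the replicate numbers occur in the shLuc group alone, and every other group has 1 library. Of the alternative counts of members, 78 were within 1.5 times the count in the text and 19 were not. Most of the 78 were 0 beside 0, so this tally does not measure how stable the calls are. The integrated stress response median in shEtnk1/2 changed sign, from -0.04 to 0.04 with GC and length trends removed and to 0.01 with the length trend removed, with median ratio scaling and by limma-voom. The count of members called in shEtnk1/2 against shLuc was 0, and 3 by limma-voom. The count in Etn-deprived against shLuc was 1. It was 0 with no filter on low values, with median ratio scaling, with the length trend removed, with GC and length trends removed, and without either shLuc library (0 to 0). It was 3 (Eif4ebp1, Hsp90b1 and Shmt2) with a mean of at least 5 RPKM and 4 by limma-voom; quantile normalization also gave 1, but this was Hsp90b1. In Etn-deprived against shPcyt2 it went from 1 to 0 with the length trend removed and with GC and length trends removed, and to 2 by limma-voom. In Etn-deprived against shPebp1 limma-voom called 1. Members at least 0.25 above both shLuc libraries in Etn-deprived numbered 1, then 2 with GC and length trends removed, 2 with the length trend removed, 2 with median ratio scaling and 5 with quantile normalization. Those below both numbered 4, then 1 with GC and length trends removed and 2 with the length trend removed. Among the named members, 12 alternative values passed where the difference in the text did not, and 10, all of Eif4ebp1, did not pass where it did. The cause of these moves was not tested. Limits: with 1 library per treated group, the spread comes from the shLuc pair or, where one of these is left out, from other treated libraries pooled. In the pooled comparison it also holds the differences among the 3 treatments. With no filter on low values the prior degrees of freedom were 0.614 in shEtnk1/2 and Etn-deprived against shLuc, instead of 9.24. Counts of 0 with no filter cannot tell whether the Eif4ebp1 call depends on the filter. Those without either shLuc library cannot tell whether it depends on 1 control library. The 3 members under 1 RPKM rest on 11 to 45 reads per library, so only large differences could be seen there. The pooled comparison has 10 splits of its 5 libraries, so a permutation p could not go below 0.1.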
